A study of Mus musculus with 3 samples.

Results

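Serum response factor (SRF) and the co-activator YAP both turn the state of the actin cytoskeleton into transcription, and 10 genes that serve as readouts or parts of these pathways are described here: Srf, Abra, Tagln, Tagln2, Cnn1, Cnn2, Vcl, Ankrd1, Ccn1 (Cyr61 in older annotation) and Ccn2 (Ctgf in older annotation). They are 10 of the 18346 mouse genes that could be named on the array, and every non-control probe whose RefSeq accession belongs to them was taken, 12 probes in all, each with 1 spot. Tagln and Vcl have 2 probes each and the other members 1. RNA came from C2C12, an established line of mouse myoblasts whose cells fuse to myotubes with many nuclei in low serum. The 3 groups were measured on 1-colour Agilent whole mouse genome arrays with 1 array per group. The sources do not say how many cultures stand behind each array. Neurogenic cellulates were myotubes taken apart with myoseverin, a compound that binds microtubules, treated for 2 days with BIO, an inhibitor of the kinase GSK-3, and then kept for 7 days in neurogenic medium. That last stage comprised 250 nM reversine for 48 h, followed by 1.5 µM all-trans retinoic acid in N2-supplemented DMEM/F12 on laminin-coated dishes. The retinoic acid medium is itself given as 7 days, so the 48 h of reversine may lie outside the 7 days of the label. BIO cellulates went through the same steps up to the 2 days of BIO. Myoblasts, the last group, were untreated. Both cellulate groups had first formed myotubes over 8 days in 2% horse serum. AraC, at 10 µM between days 2 and 4, had removed dividing cells. The sources disagree on doses: BIO is given as 2.5 µM in the sample labels and as 10 µM in the protocol, and myoseverin as 20 µM in the series text and 30 µM in the protocol. No array of untreated myotubes, of cellulates without BIO or of neurogenic medium alone was analysed here, so these steps cannot be told apart within a comparison.

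In muscle and other contractile cells, SRF binds the CArG box, a short A- and T-rich element, and is switched on by myocardin-related transcription factors (MRTFs). These bind monomeric actin and enter the nucleus when actin assembles into filaments. YAP and its relative TAZ (Wwtr1) are held in the cytoplasm by the Hippo kinases or by a soft, rounded cell shape, and act in the nucleus through TEAD factors. In skeletal muscle these pathways are known for sarcomeric and cytoskeletal actin genes, for growth under load and for the proliferation of muscle precursors.

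Each group had 1 array, without replicates, so differences are given as descriptions without tests, and precision is limited by the number of arrays. Of 43379 non-control spots per array, 45.7% to 50.7% were well above background by the scanner software, and 0 were saturated. A level below is log2 intensity minus the log2 of the array's 75th percentile, so that 0 is that percentile. The lowest level well above background was -2.57 for neurogenic cellulates, -2.73 for BIO cellulates and -3.73 for myoblasts. The only repeats were probes with 10 spots on an array. From these, 95% of differences between single spots would fall within 1.36-fold between neurogenic cellulates and myoblasts, 1.34-fold between neurogenic and BIO cellulates, and 1.41-fold between BIO cellulates and myoblasts. The scanner software's own error on a log2 difference was 0.20 to 0.22 for members measured on both arrays, except 0.39 for Cnn2. Where a probe was well above background on only 1 of 2 arrays, the fold is a lower bound, written "at least". The muscle label was checked on 11 markers: 10, including Myod1, Myog, Pax7 and Des, were well above background on every array, and Myf5 on none. In RNA from a whole culture, fewer cells of a type and less RNA per cell cannot be told apart.

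RefSeq promoters of build GRCm38.p6, each running from 250 bases before to 50 bases after a gene's start, matched 7 of the 10 members. Abra, Tagln and Ccn2 did not match. The windows were searched for the CArG box on both strands and for GGAATG, the core of the TEAD motif, on both strands. The CArG box was taken strictly, as 10 bases with CC, then only A or T, then GG. Looser forms of it were not counted. A CArG box occurred in 535 of 32851 mouse promoters (1.63%) and GGAATG in 4817 (14.7%). Among the members, Srf, Cnn2 and Vcl hold a CArG box, and Tagln2, Vcl, Ankrd1 and Ccn1 hold GGAATG. Vcl is the 1 member with both, and Cnn1 holds neither. In Srf the CArG boxes begin 82 and 62 bases before the start, in Cnn2 56 and in Vcl 227. GGAATG or its reverse complement begins 118 and 80 bases before the start in Tagln2, 143 in Vcl, 210 and 123 in Ankrd1, and 103 in Ccn1. No match overlaps another. These letters are a description of the windows and do not show that a factor binds there. Of the members with CArG boxes, Srf and Vcl were both under 2-fold different in each comparison, Vcl by its brighter probe, as given further on. Cnn2 was at least 2.27-fold higher in neurogenic than in BIO cellulates and 3.09-fold higher than in myoblasts. These Cnn2 values come from low signal and fell under 2-fold after a model-based background correction. Tagln2, Ccn1 and Ankrd1, with GGAATG, differed in RNA to unlike degrees. Printed here are the promoters of 5 of the members, in the order Srf, Vcl, Tagln2, Ccn1 and Ankrd1. They lie at chr17:46556113-46556412 (minus strand), chr14:20929148-20929447 (plus), chr1:172499996-172500295 (plus), chr3:145649936-145650235 (minus) and chr19:36119795-36120094 (minus), in that order. Capitals mark the motif matches, which on the gene's own strand read GGAATG or CATTCC for the TEAD motif.
Srf: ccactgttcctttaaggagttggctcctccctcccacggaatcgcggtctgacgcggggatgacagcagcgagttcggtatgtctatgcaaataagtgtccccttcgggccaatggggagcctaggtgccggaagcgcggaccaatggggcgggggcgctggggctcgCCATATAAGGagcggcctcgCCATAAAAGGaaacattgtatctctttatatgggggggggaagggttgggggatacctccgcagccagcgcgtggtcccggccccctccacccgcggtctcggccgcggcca
Vcl: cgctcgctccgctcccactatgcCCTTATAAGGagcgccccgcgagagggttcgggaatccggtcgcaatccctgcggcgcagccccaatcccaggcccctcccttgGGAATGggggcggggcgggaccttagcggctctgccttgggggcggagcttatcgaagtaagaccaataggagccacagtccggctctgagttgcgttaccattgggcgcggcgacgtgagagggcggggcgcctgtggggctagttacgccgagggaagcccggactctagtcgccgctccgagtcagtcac
Tagln2: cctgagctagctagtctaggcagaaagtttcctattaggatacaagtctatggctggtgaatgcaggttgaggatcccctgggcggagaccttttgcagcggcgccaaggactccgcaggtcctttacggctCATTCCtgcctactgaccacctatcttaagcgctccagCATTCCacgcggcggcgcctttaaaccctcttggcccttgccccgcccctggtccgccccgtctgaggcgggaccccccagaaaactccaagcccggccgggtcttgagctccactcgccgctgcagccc
Ccn1: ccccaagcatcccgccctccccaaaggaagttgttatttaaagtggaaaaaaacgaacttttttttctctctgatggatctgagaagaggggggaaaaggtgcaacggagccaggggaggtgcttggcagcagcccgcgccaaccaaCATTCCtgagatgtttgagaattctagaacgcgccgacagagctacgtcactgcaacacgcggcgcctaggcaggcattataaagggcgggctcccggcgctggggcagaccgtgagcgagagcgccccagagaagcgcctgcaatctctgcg
Ankrd1: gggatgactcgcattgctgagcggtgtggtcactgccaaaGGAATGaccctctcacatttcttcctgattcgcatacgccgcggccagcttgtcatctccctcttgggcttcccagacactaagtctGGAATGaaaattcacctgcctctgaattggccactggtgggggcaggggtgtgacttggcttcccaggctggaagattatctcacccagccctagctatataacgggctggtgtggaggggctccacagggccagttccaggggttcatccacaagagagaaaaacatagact

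**Figure D1:**
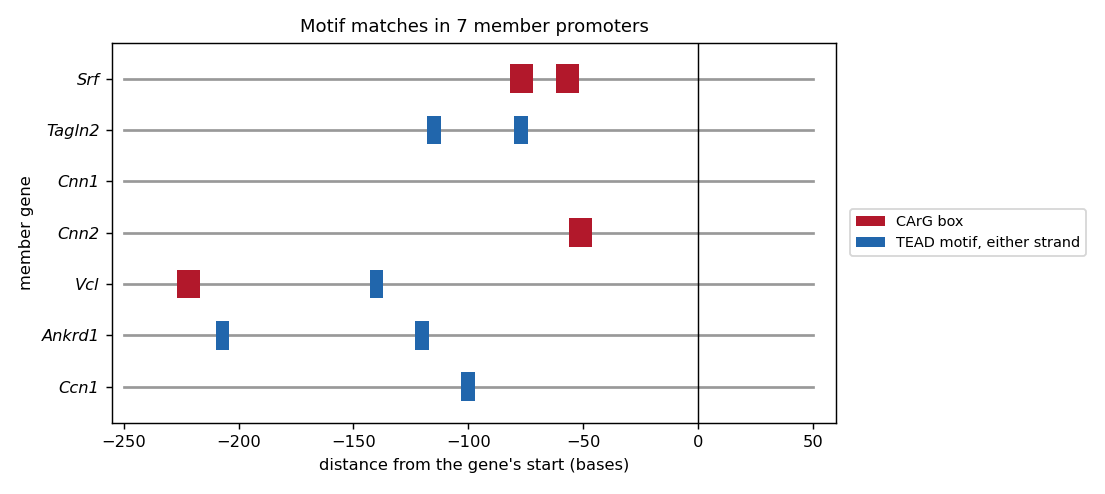
Matches to the CArG box (red) and to the TEAD motif on either strand (blue) in the promoters of 7 members, by distance in bases from the gene's start. Srf has 2 CArG boxes, Tagln2 and Ankrd1 each have 2 TEAD motifs, and Cnn1 has no match.

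Srf and Abra stand at the regulatory end of the set, the first as the transcription factor itself. Srf had a level of 0.11 in neurogenic cellulates, 0.55 in BIO cellulates and 0.62 in myoblasts. The 3 arrays lay close together. BIO cellulates were 1.05-fold lower than myoblasts, inside the range of repeat spots, and this small difference turned to 0.10 on the log2 scale when the percentile was computed from bright probes alone (those well above background). Neurogenic cellulates were 1.36-fold lower than BIO cellulates and 1.43-fold lower than myoblasts, just past that range in both cases. Against myoblasts the log2 difference ran from -1.24 with scaling to the array median to -0.17 with the percentile from bright probes. Against BIO cellulates it ran from -0.45 with scaling to the array median to -0.08 with spike-in scaling. The values of -0.17 and -0.08 lie inside the range of repeat spots. Abra, also known as STARS, encodes a muscle-enriched actin-binding protein that promotes MRTF entry into the nucleus. Its intensity was 1054 units in neurogenic cellulates, 263 in BIO cellulates and 3.30 in myoblasts, where it was not well above background. Abra was at least 30.5-fold higher in BIO cellulates than in myoblasts, and 2.96-fold higher in neurogenic than in BIO cellulates. Against myoblasts, neurogenic cellulates were at least 90.1-fold higher. Both bounds against myoblasts depend on the background correction: after normexp, a model-based correction, the log2 bounds were 4.07 for neurogenic cellulates and 2.55 for BIO cellulates, in place of 6.49 and 4.93. Of 10872 genes measured on both arrays, 0.984% had a larger positive difference than Abra in neurogenic against BIO cellulates.

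Tagln, Tagln2, Cnn1 and Cnn2 are the calponin-related actin-binding genes of the set. Tagln encodes transgelin (SM22), an actin-bundling protein and a common reporter of SRF activity in smooth muscle. By its brighter probe its level was 4.92 in neurogenic cellulates, 7.31 in BIO cellulates and 8.12 in myoblasts. By its dimmer probe the levels were 4.49, 6.41 and 6.83 in the same order of groups. Both probes therefore put neurogenic cellulates lowest and myoblasts highest. In neurogenic against BIO cellulates the brighter probe was 5.24-fold lower and the dimmer 3.78-fold lower, and 5 of 10872 genes lay below Tagln. In BIO cellulates against myoblasts the probes were 1.76-fold and 1.33-fold lower, of which the second is inside the range of repeat spots. Over both steps, in neurogenic cellulates against myoblasts, they were 9.21-fold and 5.05-fold lower.

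Tagln2 encodes the transgelin of non-muscle cells. Its level was 3.89 in neurogenic cellulates, 4.39 in BIO cellulates and 6.42 in myoblasts. Most of its difference lay between the BIO cellulates and the myoblasts: it was 4.06-fold lower there, with 101 of 11182 genes below it, and 1.42-fold lower in neurogenic than in BIO cellulates. Cnn1 encodes calponin 1, which binds actin and restrains myosin in smooth muscle. Its level was 4.81 in neurogenic cellulates, 5.77 in BIO cellulates and 7.15 in myoblasts. Cnn1 differed at both steps, 2.60-fold lower in BIO cellulates than in myoblasts and 1.94-fold lower in neurogenic than in BIO cellulates. Neurogenic cellulates against myoblasts were 5.75-fold lower for Tagln2 and 5.05-fold lower for Cnn1. Cnn2 encodes calponin 2, the form of non-muscle and stromal cells, and went the other way at low signal. Its intensity was 53.2 units in neurogenic cellulates, 8.22 in BIO cellulates, where it was not well above background, and 20.0 in myoblasts. Neurogenic cellulates were at least 2.27-fold higher than BIO cellulates and 3.09-fold higher than myoblasts, but after normexp these log2 differences were 0.30 and 0.75, under 2-fold. For BIO cellulates against myoblasts no fold could be given, since the signal lay too near background.

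Vcl encodes vinculin, which ties actin filaments to talin at focal adhesions and, in muscle, to costameres. Its brighter probe had a level of 1.30 in neurogenic cellulates, 1.77 in BIO cellulates and 2.24 in myoblasts. This placed the 3 arrays in the same order as Tagln, at a smaller size. BIO cellulates were 1.39-fold lower than myoblasts, inside the range of repeat spots, and neurogenic cellulates 1.38-fold lower than BIO cellulates. Against myoblasts, neurogenic cellulates were 1.92-fold lower. The dimmer probe did not follow: it was well above background in neurogenic cellulates alone, at an intensity of 30.6 units against 3.75 in BIO cellulates and 3.01 in myoblasts, and was higher there by at least 1.31-fold against BIO cellulates and by at least 2.62-fold against myoblasts. The 2 probes of Vcl thus gave opposite signs wherever both could be compared, and its direction rests on the brighter one.

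The YAP readouts were Ankrd1, Ccn1 and Ccn2. Ankrd1 encodes CARP, a stress-responsive ankyrin repeat protein of the sarcomeric I-band, and is a direct YAP target in many cell types. Its level was 6.64 in neurogenic cellulates, 7.09 in BIO cellulates and 6.71 in myoblasts. The arrays nearly overlapped: neurogenic cellulates were 1.05-fold lower than myoblasts and BIO cellulates 1.30-fold higher, both within the range of repeat spots, and both signs turned under another scaling. In neurogenic against BIO cellulates Ankrd1 was 1.36-fold lower, just past that range. Ccn1 encodes a secreted matricellular protein that binds integrins and is induced within minutes of serum or stretch. Its level was 3.44 in neurogenic cellulates, 5.20 in BIO cellulates and 5.84 in myoblasts. It was 3.37-fold lower in neurogenic than in BIO cellulates, with 20 of 10872 genes below it, and 1.56-fold lower in BIO cellulates than in myoblasts. Ccn2 encodes connective tissue growth factor, a matricellular protein of fibrosis. Its level was 4.16 in neurogenic cellulates, 5.68 in BIO cellulates and 5.58 in myoblasts. Ccn2 differed past the range of repeat spots at the neurogenic step alone: BIO cellulates were 1.07-fold higher than myoblasts, inside the range of repeat spots and turned to -0.62 on the log2 scale with scaling to the array median, whereas neurogenic cellulates were 2.86-fold lower than BIO cellulates and 2.67-fold lower than myoblasts. Ankrd1, Ccn1 and Ccn2, which are commonly read together as YAP output, thus differed by unequal amounts at each step.

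**Figure D2:**
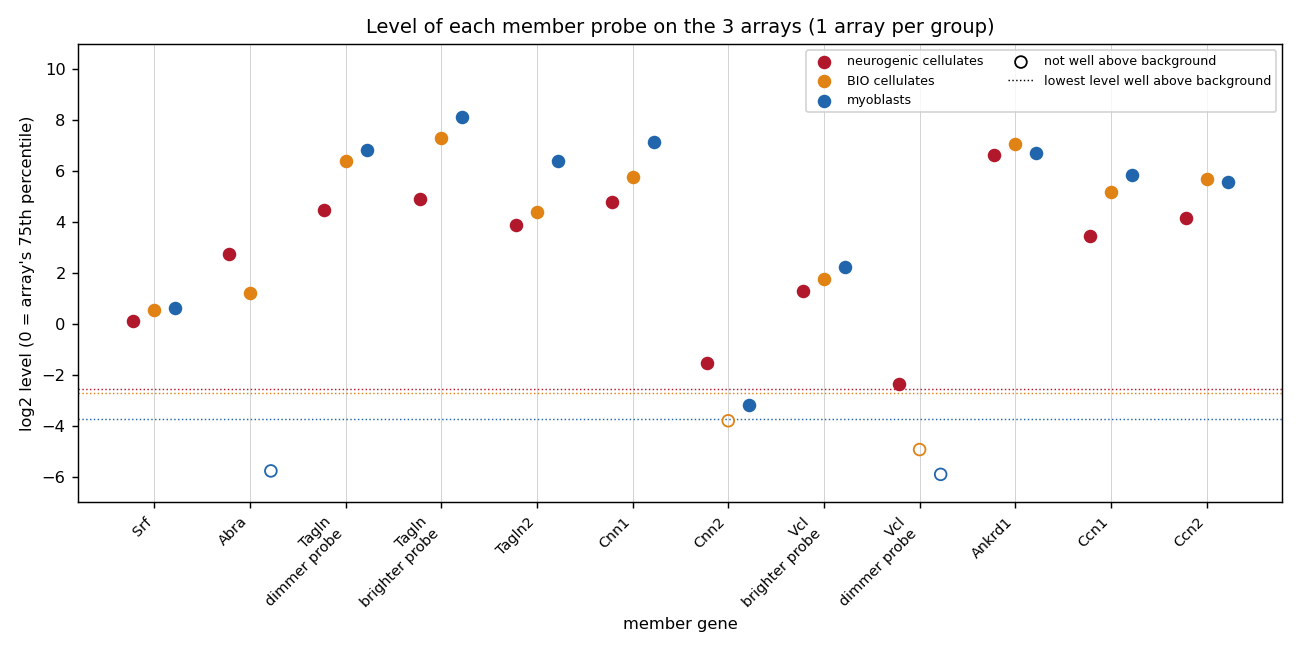
Level of each of the 12 member probes on the log2 scale (0 is the array's 75th percentile), with neurogenic cellulates left, BIO cellulates in the middle and myoblasts right within each probe. Open circles are not well above background and dotted lines mark the lowest level well above background on each array. Tagln, Tagln2, Cnn1 and Ccn1 step downward from right to left, Ankrd1 lies within 0.45 from highest to lowest, and Abra steps upward from right to left.

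BIO cellulates against myoblasts asked how the treated, formerly fused cells compared with the line they came from. Abra was the 1 of 10 members at least 2-fold higher, and Tagln2 and Cnn1 were the 2 at least 2-fold lower. Among all 12825 genes compared, 11.2% were higher by that much and 6.01% lower. On both arrays, 0 of 8 members were higher and 2 lower, where 8.43% of 11182 genes were higher and 6.13% lower. Over the 8 members measured on both arrays the median log2 difference was -0.56, compared with 0.01 over all those genes, and 6 of the 8 were below 0, against 49.3% of the genes. Of these 8, 4 lay within the range of repeat spots.

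Of 35 other SRF and MRTF targets measured, 5 were higher by 2-fold or more and 4 lower, with a median of -0.25. The higher ones were led by the sarcomeric genes Acta1 (skeletal actin, 55.0-fold) and Des (the muscle intermediate filament desmin, 12.2-fold). Tpm1, a tropomyosin gene, was 7.66-fold higher and Pdlim7, an actin-anchoring scaffold gene, 4.87-fold, although another probe of each gave a log2 difference of -0.83 for Tpm1 and -1.66 for Pdlim7. The lower ones were the non-muscle tropomyosin gene Tpm4 (2.33-fold), the LIM protein gene Csrp1 (at least 2.27-fold), filamin A, Flna (2.10-fold), and cytoplasmic gamma-actin, Actg1 (2.02-fold). Of 18 SRF regulators, 1 was at least 2-fold lower, the formin gene Diaph3 (3.54-fold), and 0 were higher. The co-activator genes had log2 differences of -0.57 for Mrtfa, 0.61 for Mrtfb and -0.92 for Myocd, and Rhoa, the GTPase upstream of them, of -0.72.

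On the YAP side, 18 other targets had a median log2 difference of -0.58, with 3 at least 2-fold lower and 1 higher. Birc5 (survivin, also a mitotic gene) was at least 5.44-fold lower, Nt5e (the ecto-enzyme CD73) 2.73-fold and Dock5, a Rac exchange factor gene, 2.17-fold. Amotl1, an angiomotin that binds YAP, was at least 3.13-fold higher. Of 18 Hippo pathway and TEAD genes, Tead2 (2.27-fold) and the atypical cadherin gene Fat4 (2.01-fold) were at least 2-fold lower and 0 higher, with a median of -0.38. Wwtr1, which encodes TAZ, had a log2 difference of 0.46 and Tead1 of -0.14. The probe of Yap1 was not well above background on any array, so YAP itself gave no fold. The partners of vinculin at focal adhesions had a median of -0.42 over 18 genes. Of these, Tln2, the talin of muscle, was 2.39-fold lower. Among the genes named in this comparison from these lists, Diaph3, Acta1, Des, Tpm4, Tead2 and Tln2 were past 2-fold under each alternative setting that gave a value. The others fell under 2-fold in 1 or more settings: Actg1, Flna, Tpm1, Pdlim7, Csrp1, Birc5, Nt5e, Dock5, Fat4 and Amotl1, the last down to 0.18 on the log2 scale. Scaling to the array median, which lowered all differences here by about 0.72, raised the number at least 2-fold lower to 17 of 35 SRF targets, 11 of 18 YAP targets, 10 of 18 Hippo genes, 8 of 18 SRF regulators and 13 of 18 vinculin partners.

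Neurogenic against BIO cellulates asked what the neurogenic stage added. Tagln, Ccn1 and Ccn2 were at least 2-fold lower in neurogenic cellulates, and Abra and Cnn2 at least 2-fold higher. That is 3 of 10 members lower, where 1.8% of all 12252 genes compared were lower by that much, and 2 of 10 higher, where 4.16% were. On both arrays, 3 of 9 members were lower and 1 higher, where 1.41% and 2.45% of 10872 genes were. Over the 9 members measured on both arrays the median was -0.50, against -0.18 over all those genes. Of these 9 members 8 were below 0, as were 69.3% of the genes, and all 9 lay past the range of repeat spots. That count did not hold under spike-in scaling, where Srf (-0.08), Tagln2 (-0.14), Vcl (-0.11) and Ankrd1 (-0.09) fell inside it. The same 4 lay inside it after normexp and with the percentile from bright probes, and all of them but Srf after quantile normalisation.

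**Figure D3:**
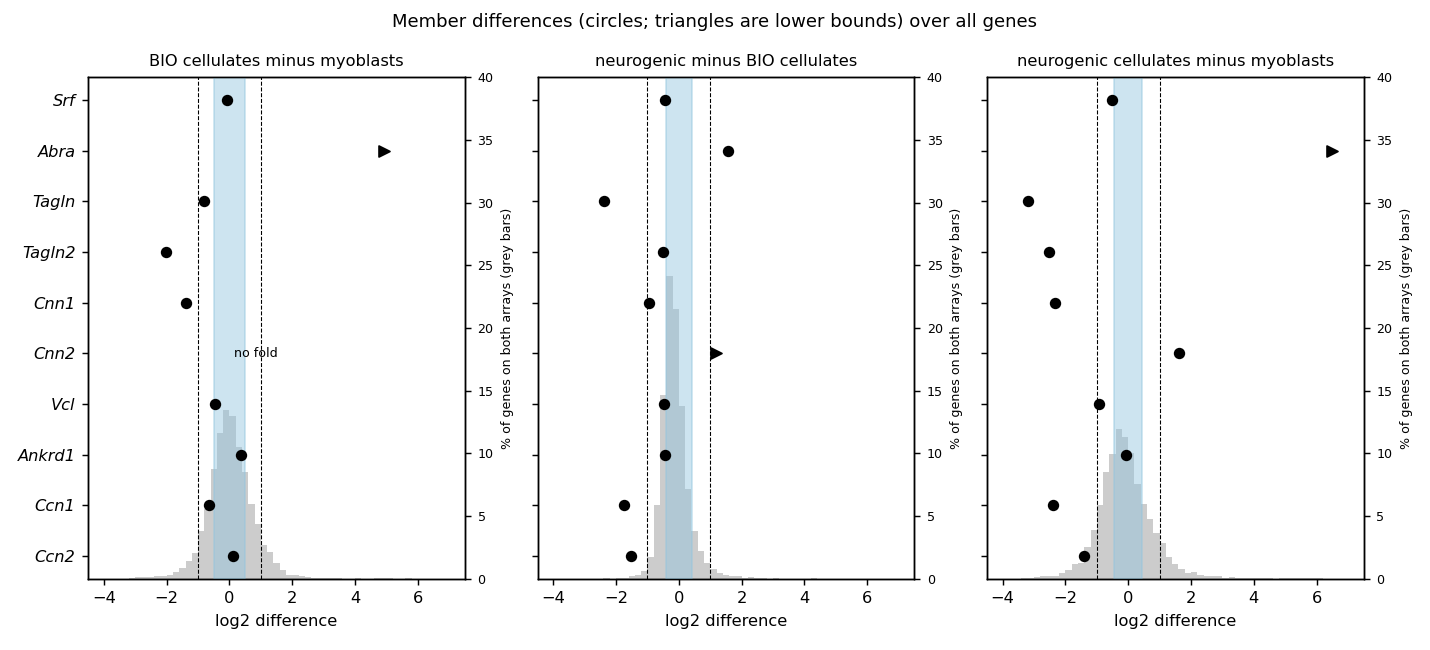
Log2 difference of each member in the 3 comparisons (circles, or triangles for lower bounds), over the distribution of all genes measured on both arrays (grey bars, right axis, in percent of genes). Dashed lines mark 2-fold and the blue band the 95% range of repeat spots. In neurogenic against BIO cellulates Tagln (-2.39), Ccn1 (-1.75) and Ccn2 (-1.52) lie past the 2-fold line on the lower side, and Abra (1.56) on the higher side.

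Of 36 other SRF and MRTF targets measured at the neurogenic stage, 4 were at least 2-fold lower and 2 higher, with a median of -0.37. Enteric smooth muscle actin, Actg2, was 3.09-fold lower, the smooth muscle cytoskeletal gene Smtn 2.87-fold, caldesmon, Cald1, which holds actin and tropomyosin in check, 2.28-fold, and cardiac actin, Actc1, 2.13-fold. The LIM protein genes Csrp2 (at least 4.10-fold) and Csrp1 (at least 2.35-fold) were higher, by probes not well above background in BIO cellulates. Acta2, the smooth muscle actin usually read beside Tagln, had a log2 difference of -0.23 by its brighter probe and -1.07 by its other probe. None of the 19 measured SRF regulators was at least 2-fold different in either direction, with log2 differences of -0.25 for Mrtfa, -0.27 for Mrtfb, -0.10 for Myocd and -0.16 for Rhoa.

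Of 19 other YAP targets, 1 was at least 2-fold lower and 3 higher, with a median of -0.28. Amotl2, an angiomotin gene and YAP target, was 2.35-fold lower, next to Ccn1 and Ccn2. Birc5 (at least 13.5-fold), Nt5e (3.36-fold) and the stress gene Gadd45a (at least 2.09-fold) were higher. None of 18 Hippo pathway and TEAD genes and none of 18 vinculin partners was at least 2-fold different, with medians of -0.10 and -0.14. The medians of the SRF regulators (-0.14), other YAP targets, Hippo genes and vinculin partners in this comparison turned to 0.21, 0.08, 0.26 and 0.22 with spike-in scaling, which raised all differences by 0.36. Wwtr1 had a log2 difference of -0.09, Tead1 of -0.11, Tead2 of 0.27 and Tln1, the talin that vinculin binds, of -0.49. Of the genes named as at least 2-fold different at the neurogenic stage, Actg2, Smtn and Birc5 were so under each setting that gave a value. Cald1, Actc1, Csrp1, Csrp2, Amotl2, Gadd45a and Nt5e fell under 2-fold in 1 or more, Amotl2 to -0.88 with spike-in scaling.

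Neurogenic cellulates against myoblasts spanned both stages and shares an array with each comparison above. Tagln, Tagln2, Cnn1, Ccn1 and Ccn2 were the 5 of 10 members at least 2-fold lower, and Abra and Cnn2 the 2 at least 2-fold higher. Of all 12851 genes compared, 10% were lower by that much and 12.1% higher. On both arrays, 5 of 9 members were lower and 1 higher, where 11% and 9.35% of 10882 genes were. Ccn1 was 5.27-fold lower, so that 4 members, all but Ccn2 of those lower, differed by more than 5-fold. Over the 9 members measured on both arrays the median was -1.42, against -0.15 over all those genes, and 8 of the 9 were below 0, as were 58.6% of the genes. Srf and Vcl were under 2-fold.

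Of 36 other SRF and MRTF targets, 11 were at least 2-fold lower and 7 higher in neurogenic cellulates than in myoblasts, with a median of -0.39. Actg2 (4.89-fold), Smtn (4.59-fold), Flna (3.92-fold) and Cald1 (3.64-fold) were the lowest. Acta1 (52.4-fold), Des (18.5-fold), Csrp2 (at least 8.20-fold) and Tpm1 (6.27-fold, with another probe at -1.27) were the highest. Of 18 other YAP targets, 6 were at least 2-fold lower and 3 higher, with a median of -0.57. Dock5 (3.97-fold), Amotl2 (3.67-fold), the LIM protein gene Ajuba (2.59-fold) and the phosphatase gene Ptpn14 (2.38-fold) were the lowest, and Gadd45a (at least 4.18-fold), Igfbp3 (at least 3.44-fold) and Birc5 (2.48-fold) the higher ones. Among 18 vinculin partners, the actin crosslinkers Actn4 (3.12-fold) and Actn1 (2.98-fold) and the talin gene Tln2 (2.07-fold) were lower, with a median of -0.64 (Zyx, Tln1 and Actn1 are in both this list and that of SRF targets). Of 19 SRF regulators, Diaph3 (3.74-fold) and Myocd (2.03-fold) were lower and Ablim1 (at least 3.16-fold) and the muscle cofilin gene Cfl2 (2.21-fold) higher, with a median of -0.31 that turned to 0.04 when the percentile was computed from bright probes alone (those well above background). Of 18 Hippo and TEAD genes, Frmd6 (2.91-fold) and Lats1 (2.17-fold) were lower and Wwc2 (at least 4.00-fold) higher, with a median of -0.44, and after normexp 0 of these 18 genes were called in either direction. Diaph3, Actg2, Smtn, Flna, Cald1, Acta1, Des, Csrp2, Amotl2, Actn4 and Actn1 were past 2-fold under each setting that gave a value. Myocd (to -0.02), Lats1 (to -0.22), Ablim1, Cfl2, Tpm1, Dock5, Ajuba, Ptpn14, Gadd45a, Igfbp3, Birc5, Frmd6, Wwc2 and Tln2 fell under it in 1 or more. With array median scaling, 19 of 36 SRF targets, 10 of 18 YAP targets and 15 of 18 vinculin partners were at least 2-fold lower.

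**Figure D4:**
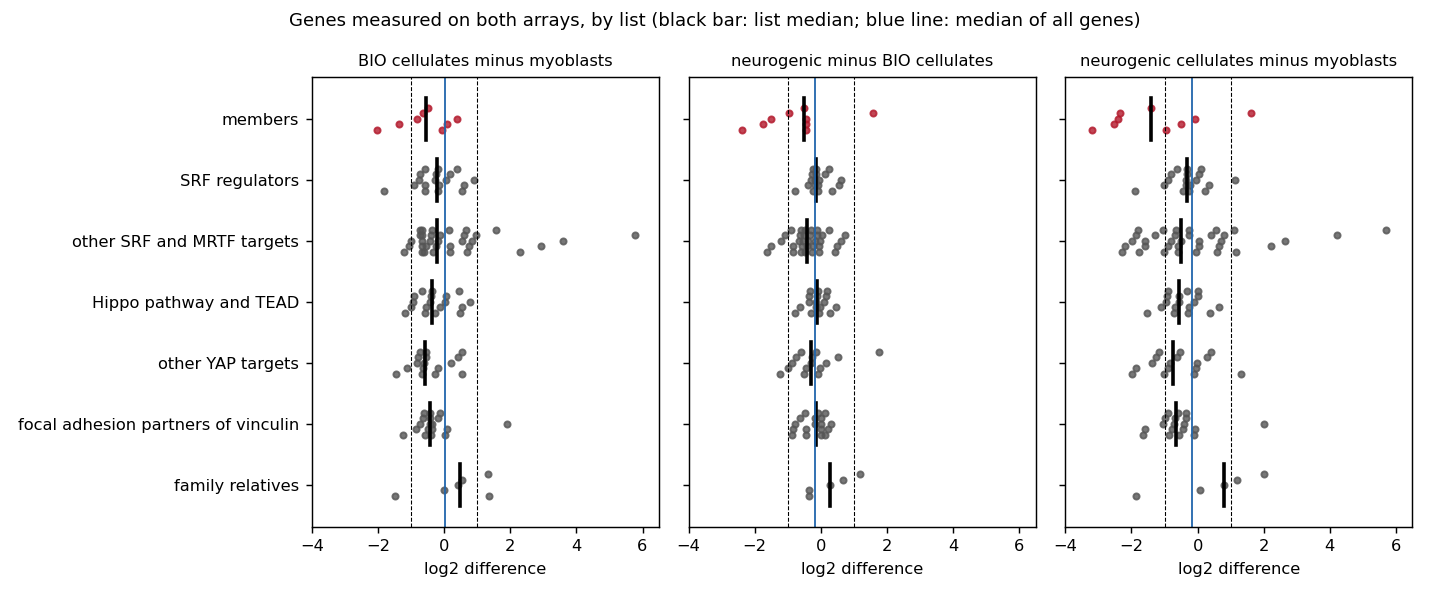
Log2 differences of the members (red) and of 6 lists of related genes (grey), for genes measured on both arrays in each comparison. Black bars are list medians, the blue line is the median of all genes and dashed lines mark 2-fold. In neurogenic cellulates against myoblasts the member median is -1.42, and the medians of the 5 pathway lists lie between -0.73 and -0.31.

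Close relatives of the members differed from each other in direction. Cnn3, the third calponin gene, had log2 differences of 0.43 in BIO cellulates against myoblasts and -0.36 in neurogenic against BIO cellulates. Tagln3, the neuronal transgelin gene, had 0.01 and 1.19 for the same comparisons, so it was 2.29-fold higher at the neurogenic stage where Tagln was lower. Ccn4 was 2.83-fold lower in BIO cellulates than in myoblasts and had a difference of -0.35 at the neurogenic stage. Ccn5 was 2.52-fold higher in BIO cellulates than in myoblasts and at least 1.70-fold lower in neurogenic than in BIO cellulates, and Ccn3 and Ccn6 did not reach well above background anywhere. Ankrd23, a muscle ankyrin repeat gene related to Ankrd1, was 2.55-fold higher in BIO cellulates than in myoblasts and 1.58-fold higher in neurogenic than in BIO cellulates. Ankrd2, another of these, was 1.46-fold and 1.20-fold higher in the same comparisons. Of the relatives past 2-fold, Ccn4 was so under each setting run, whereas Ccn5, Ankrd23 and Tagln3 fell under it in BIO cellulates against myoblasts or at the neurogenic stage after normexp.

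Because Tagln and Cnn1 are also markers of smooth muscle, and fibroblasts also make Ccn2, marker levels of other cell types are given beside them. Without Tagln and Cnn1, 7 of 7 smooth muscle markers were well above background on every array. Their summed signal, in multiples of each array's 75th percentile, was 284 in neurogenic cellulates, 382 in BIO cellulates and 317 in myoblasts. Of these 7 markers, Actg2 and Smtn were the 2 at least 2-fold lower in neurogenic than in BIO cellulates. Of 8 fibroblast markers, 6 were well above background in neurogenic cellulates and 5 in each other culture, and their summed signal was 1380, 1682.5 and 2153 in neurogenic cellulates, BIO cellulates and myoblasts. Pdgfra and Lum did not reach it on any array. Among the fibroblast markers Postn was 5.58-fold lower and Dcn 6.47-fold higher in neurogenic than in BIO cellulates. Of 9 neuronal markers, 5, 5 and 4 were well above background in the same order of groups, with summed signals of 6.37, 6.56 and 10.9. Syp, Snap25 and Nefl were well above background on no array. The 11 muscle markers summed to 1824, 2176 and 222. The part of these cell types in the member differences was not tested.

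The genes whose pattern was most like Tagln and Tagln2, the 2 members with the largest difference between arrays that both measured them well above background, were found by distance over 2 differences, BIO cellulates minus myoblasts and neurogenic minus BIO cellulates, among 10662 genes well above background on all 3 arrays. Nearest to Tagln were Dner, a Notch ligand gene (distance 0.18 on the log2 scale), the Wnt antagonist gene Wif1 (0.31), the activin antagonist gene Fst (0.46), the cartilage matrix gene Cilp (0.49) and Ccn1 (0.66). Ccn1, itself a member, was among these 5. Few genes lay so low in neurogenic against BIO cellulates: of 10872, 5 were below Tagln and 20 below Ccn1. Whether the place of Ccn1 among the 5 nearest reflects more than this was not tested. Among the genes nearest to Tagln2 were Chaf1b (0.07), Cdc25b (0.09), Pold1 (0.12) and Pfkfb1 (0.14). Chaf1b, Cdc25b and Pold1 serve DNA replication and division. Only 2 differences define each pattern, and both use the BIO array.

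**Figure D5:**
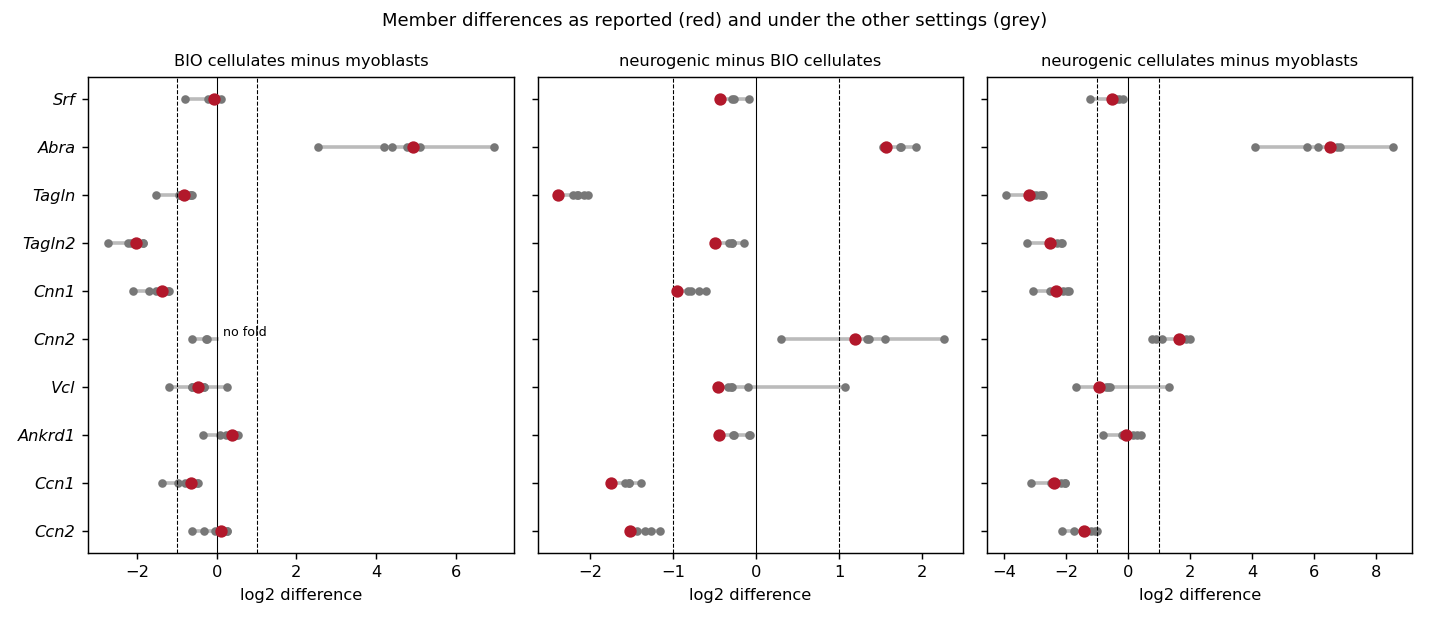
Log2 difference of each member as reported (red) and under up to 9 other processing settings (grey), with 2-fold dashed. Tagln, Tagln2, Cnn1, Ccn1 and Ccn2 stay past 2-fold lower in neurogenic cellulates against myoblasts under each setting run, Vcl crosses 0 by the median over its probes, and Ankrd1 crosses 0 in 2 panels.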

How the data were processed

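Samples were grouped by their treatment labels into neurogenic cellulates, BIO cellulates and myoblasts, 1 array each, hybridised on 1 slide and scanned on 1 day. Per the labels' protocols, Cy3-labelled target was made from 200 ng of total RNA. Per the file headers, Feature Extraction 10.7.3.1 read array design 014868 (build mm9) and gave every spot an intensity on a linear scale, from which background and a spatial trend had been subtracted. The authors deposited a further table of log2 values, whose columns equal the log2 intensity plus 0.23, 0.67 and 0.00 for neurogenic cellulates, BIO cellulates and myoblasts, with medians of 7.88, 7.77 and 7.42, hold values for probes well above background almost throughout, and the authors' scaling rule is not given in the sources used here.

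Control and outlier spots were left out (16 of 41174 probes lost), repeat spots were averaged as log2, and the log2 75th percentile of non-control spots was subtracted: 156, 115 and 181 intensity units for neurogenic cellulates, BIO cellulates and myoblasts. Probes were named by unversioned accession through the RefSeq table of GRCm38.p6, which named 26910 of them. For each gene the brightest probe (mean of 3 arrays) was used. Where a probe was well above background on 1 of 2 arrays, the bound was its level minus, on the dim array, either the probe's own level or the lowest level well above background, whichever was higher, and a bound under 1-fold gave no fold. Genes dim on both arrays did not enter counts, nor did those with probes split over background. "Called" means at least 2-fold, and no test was possible. Lists of related genes exclude the members, and up to 4 genes per list, direction and comparison were named by size, apart from some genes that are not reported here. The members, lists and rules were chosen with earlier results of these data known. The calculation was tested on simulated data. Alternatives were the array median, a percentile over probes well above background, quantile, spike-in and normexp (limma 3.58.1, R 4.3.3, offset 50 on median signals, since the files hold no mean signal) settings, the deposited values, no filter, both arrays only, and the median over probes. Python 3.11.15 with numpy 2.4.6 and pandas 2.3.3 was used otherwise.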

Additional observations from a re-analysis of the deposited data

How the results depend on the processing

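Of the values that the 10 members took under the alternatives, 228 moved by no more than the range of repeat spots and 34 by more. Many of the 228 could not move, so this count does not measure robustness. For members measured on both arrays, no filter and both arrays only return the same value. The median over probes does so for members with 1 probe. The deposited values shifted all differences by only 0.005 to 0.016. None of the members at least 2-fold different changed sign. Scaling to the array median, which rests on signal near background, lowered differences against myoblasts by about 0.73 for neurogenic cellulates and 0.72 for BIO cellulates. It made 5 of 10 members at least 2-fold lower in BIO cellulates against 2, and 3700 of all 12825 genes against 771. It left 1 member at least 2-fold higher in neurogenic cellulates than in myoblasts against 2, because Cnn2 was 0.90 there. Spike-in scaling raised neurogenic against BIO cellulates by 0.36, which left Srf, Tagln2, Vcl and Ankrd1 inside the range of repeat spots. Many calls of related genes ended under 1 or more settings, as named with them above. After normexp correction Cnn2 was 0.30 against BIO cellulates and 0.75 against myoblasts, so 1 member was higher in each of these comparisons, and the log2 bounds of Abra against myoblasts were 4.07 for neurogenic cellulates and 2.55 for BIO cellulates, in place of 6.49 and 4.93. Restricted to probes well above background on both arrays, and likewise by the deposited values, 0 members were higher in BIO cellulates than in myoblasts, since Abra was not well above background in myoblasts, and 1 in each other comparison. The median over probes, which takes in the dim Vcl probe, gave Vcl log2 differences of 0.25, 1.06 and 1.31 in BIO cellulates against myoblasts, neurogenic against BIO cellulates and neurogenic cellulates against myoblasts. Ankrd1 was 0.41 in neurogenic cellulates against myoblasts after quantile normalisation and -0.34 in BIO cellulates against myoblasts with array median scaling.

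Counts over all genes moved by over 1.5 times as follows. For BIO cellulates against myoblasts, 1440 higher became 369 with array median scaling, 820 with quantile normalisation, 301 after normexp, 4385 without the filter and 943 on both arrays, and 771 lower became 3700 with array median scaling. For neurogenic against BIO cellulates, 510 higher became 958 with spike-in scaling, 200 after normexp, 269 by the deposited values, 1032 without the filter and 266 on both arrays. There 220 lower became 136 with the percentile over probes well above background, 84 with spike-ins, 70 after normexp and 619 without the filter. For neurogenic cellulates against myoblasts, 1557 higher became 649 with array median scaling, 527 after normexp, 5118 without the filter and 1018 on both arrays. There 1291 lower became 4995 with array median scaling, 620 with the percentile over probes well above background and 820 with spike-ins. Array median scaling left 9.07% of the genes called in BIO cellulates against myoblasts on the higher side, against 65.1%. No paired analysis was possible because each group has 1 array.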
